A study of Rattus norvegicus with 4 samples.

Results

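Immediate early genes are the genes that cells switch on within minutes of a stimulus, without waiting for new protein. Most encode transcription factors, and their mRNAs are short-lived. In arteries, stretch, injury and handling of the tissue are well-known stimuli of these genes. The group has its own brakes: MAP kinase phosphatases shut off the kinases that drive it. The set examined here holds 9 of these genes, chosen by Ensembl identifier out of the 26313 identifiers in the files: Fos (ENSRNOG00000008015), Jun (ENSRNOG00000026293), Junb (ENSRNOG00000042838), Atf3 (ENSRNOG00000003745), Egr1 (ENSRNOG00000019422), Nr4a1 (ENSRNOG00000007607), Myc (ENSRNOG00000004500), Dusp1 (ENSRNOG00000003977) and Btg2 (ENSRNOG00000003300). All 9 had reads in all 4 samples.

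RNA-Seq was done on whole arterial tissue from adult male Sprague-Dawley rats. There were 2 samples of thoracic aorta (AO1 and AO2), a large conduit artery, and 2 of the mesenteric arterial arcade without the superior mesenteric artery (MA1 and MA2), which holds small resistance arteries. By the study's methods, AO1 and MA1 were taken from a single rat, while AO2 was from another rat and MA2 from yet another. The rats were killed with carbon dioxide and cervical dislocation. In the rat of AO1 and MA1 the aorta was taken out before the small intestine, and both were placed in RNA preservative. Only after that was the arcade freed from its surroundings and from fat, and it was then kept in preservative too. AO2 and MA2 are described as handled similarly. The times between death, dissection and preservation are not given. No vessel preserved without dissection is among the 4 samples, so the levels below are levels after dissection and not a measure of induction. Because the tissue was whole, fewer cells of a type and less RNA per cell cannot be told apart. Markers of smooth muscle, endothelium, fat or other cell types were not looked up here, because the files and reference tables used do not pair identifiers with symbols. Each difference between tissues below is therefore given without the cell makeup of the samples, and its part in these differences was not tested. The symbols of the 9 genes are those given with the identifiers that define the set.

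The values are RPKM, read numbers corrected for the length of the gene and the size of the library. The reads behind them, worked out from the size of the smallest RPKM steps, added up to between 72522329 and 82447888 on genes per sample. The 10 genes with the most reads took 43.8% and 35.9% of the reads in AO1 and AO2, against 18.5% and 16.3% in MA1 and MA2. RPKM were therefore also divided by median-of-ratios factors, which were 0.789 and 0.897 for the AO samples and 1.22 and 1.16 for the MA samples. These are called scaled RPKM.

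The lengths recovered with the reads gave a check on the identity of the genes. The length was 2867 bp for Fos, equal to the length of this gene in RefSeq (rat assembly GRCr8). It was 4925 bp for Myc, 3786 bp for Egr1 and 2793 bp for Dusp1, where RefSeq has 4927, 3800 and 2794 bp. The length for Btg2 was 1880 bp, and RefSeq has 3760 bp, exactly 2 times as much. The solution takes the smallest length that gives whole reads, so the reads of Btg2 can be too few by that factor. Jun and Junb had 1005 and 1035 bp, which hold 335 and 345 whole codons, against 3094 and 1785 bp in RefSeq. Nr4a1 had 7895 bp and Atf3 31744 bp, against 20892 and 57551 bp. For these 4 genes the lengths differed from the RefSeq gene lengths, so that comparison gave no check on their identity. Coding lengths were not compared. The length of Atf3 is far above that of the others, and a longer divisor gives a lower RPKM for the same number of reads. Levels of different genes are therefore compared per recovered gene length and not per mRNA.

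For several of these genes the promoter is a textbook example of stimulus-driven control. The cAMP response element (CRE, letters TGACGTCA) binds CREB, and the CArG box is the core of the serum response element bound by SRF. RefSeq promoter sequences were available here for 5 of the 9 genes, Egr1, Nr4a1, Btg2, Dusp1 and Junb. The 250 bases before the start were searched on both strands. The sequences of 4 are shown because they set 3 genes that were lower in both MA samples (Egr1, Nr4a1 and Btg2) beside 1 whose tissues overlapped (Dusp1). They are given 5′ to 3′ on the gene's strand in GRCr8. Capitals mark CREs, their 5-base half-sites (TGACG, or CGTCA on the other strand) and CArG boxes. Each full CRE holds 2 overlapping half-sites.
Egr1, chr18:26736828-26737077, plus strand: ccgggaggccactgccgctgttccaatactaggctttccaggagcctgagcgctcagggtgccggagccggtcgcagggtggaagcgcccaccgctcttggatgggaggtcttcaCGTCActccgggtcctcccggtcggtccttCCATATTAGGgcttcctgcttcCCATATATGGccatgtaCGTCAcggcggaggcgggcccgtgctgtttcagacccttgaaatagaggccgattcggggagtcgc
Nr4a1, chr7:134259888-134260137, plus strand: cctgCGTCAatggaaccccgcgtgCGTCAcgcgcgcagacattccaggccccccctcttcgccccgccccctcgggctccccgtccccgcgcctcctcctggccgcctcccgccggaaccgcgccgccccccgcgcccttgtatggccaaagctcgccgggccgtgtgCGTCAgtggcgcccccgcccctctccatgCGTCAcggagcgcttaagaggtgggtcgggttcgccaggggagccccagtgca
Btg2, chr13:48087691-48087940, minus strand: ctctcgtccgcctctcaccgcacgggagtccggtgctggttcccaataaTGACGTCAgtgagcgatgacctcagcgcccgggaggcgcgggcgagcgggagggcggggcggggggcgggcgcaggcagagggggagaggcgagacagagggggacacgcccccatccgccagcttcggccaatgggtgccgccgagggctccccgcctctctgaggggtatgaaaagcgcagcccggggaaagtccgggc
Dusp1, chr10:17184603-17184852, plus strand: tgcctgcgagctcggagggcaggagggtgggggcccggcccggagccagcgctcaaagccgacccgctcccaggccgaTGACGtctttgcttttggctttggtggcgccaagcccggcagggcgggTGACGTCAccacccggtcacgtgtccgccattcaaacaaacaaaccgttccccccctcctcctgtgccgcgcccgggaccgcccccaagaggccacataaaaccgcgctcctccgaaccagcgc

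The Egr1 promoter held 2 CArG boxes, CCATATTAGG from 105 to 96 bases and CCATATATGG from 83 to 74 bases before the start. No other of the 5 promoters held one, and 1.5% of the 33469 RefSeq promoters of the same length did. A full CRE stood in the promoters of Btg2, from 201 to 194 bases before the start, and of Dusp1, from 124 to 117 bases, compared with 1.59% of all promoters. Half-sites were present in all 5, with 4 of them in Nr4a1, and in 18.2% of all promoters. The AP-1 site (TGANTCA), to which Fos and Jun proteins bind, was in none of the 5 and in 6.34% of all. The Egr site (GCGNGGGCG) was in 2 of the 5, Btg2 and Nr4a1, and in 4.29% of all. These matches describe letters in the window and were not tested as binding sites. Of the 2 genes with a full CRE, Btg2 was lower in both MA samples, and the tissues overlapped for Dusp1, so its direction was not resolved. Whether these sites bear on the levels was not tested.

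Per recovered gene length, Dusp1, Jun and Junb had the highest values of the 9 genes in each sample, and Atf3 had the lowest. This order depends on the lengths, from 1005 bp for Jun to 31744 bp for Atf3. By recovered reads it differed: Atf3 had 1446 in MA2, against 1225 for Egr1 and 389 for Fos. Nr4a1 had 4441 in AO1, against 2538 for Jun. The mean scaled RPKM in AO was 40.9 ± 21.0 (SD, n = 2) for Dusp1, 38.8 ± 4.79 (SD, n = 2) for Jun, 29.6 ± 7.27 (SD, n = 2) for Junb and 20.6 ± 4.55 (SD, n = 2) for Btg2. In MA the order was Jun at 51.6 ± 5.79 (SD, n = 2), Dusp1 at 35.3 ± 5.55 (SD, n = 2), Junb at 27.0 ± 9.69 (SD, n = 2) and Btg2 at 9.17 ± 1.09 (SD, n = 2). Dusp1 and Jun overlapped in AO, and Dusp1 and Junb overlapped in MA, so these neighbors were not separated by the spread between samples. Egr1 and Nr4a1 came next in both tissues. Fos and Myc were low and overlapped in AO, and Myc was above Fos in both MA samples. By rank of RPKM among the 20747 genes with any reads, Jun lay between the 96.8th and the 97.9th percentile in the 4 samples. Fos lay between the 68.4th and the 81.7th. The recovered length was 1005 bp for Jun and 2867 bp for Fos. Its median was 15465 bp over genes with at least 10 reads in all, so these ranks are not ranks per mRNA.

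**Figure D1:**
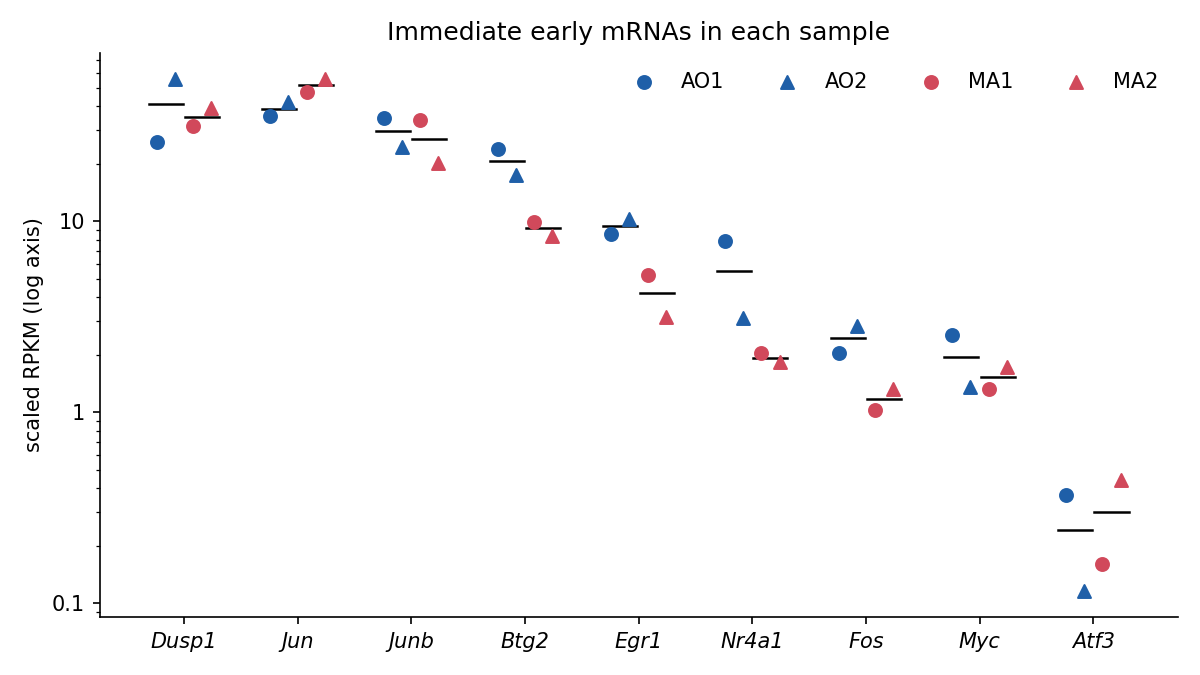
Scaled RPKM (log axis) of the 9 immediate early mRNAs in the 2 aorta samples (blue) and the 2 mesenteric artery samples (red), with a black line at the mean of each tissue. Both MA points lie below both AO points for Btg2, Egr1, Nr4a1 and Fos and above them for Jun, and the tissues overlap for Dusp1, Junb, Myc and Atf3.

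The first question was whether these mRNAs differ between the conduit and the resistance arteries. Fos, Egr1, Nr4a1 and Btg2 were lower in both MA samples than in both AO samples, and Jun was higher in both, as deposited and after scaling. Under the test across all genes none of these differences passed. A gene was called when its adjusted p from limma was at most 0.05 (Benjamini-Hochberg, over 7203 genes), the tissues were more than 2-fold apart, and the AO mean was not between the MA samples. Of the 7203 genes, 7.71% were called, 0.93% higher in MA and 6.77% higher in AO. Of the 8 immediate early genes that were tested, 0 were called by limma, and 0 by limma-voom on the recovered reads, which for Btg2 can be too few. Atf3 was not tested, because its RPKM was under 1 in all samples. An unadjusted p under 0.05 was found for 3 of the 8 (Fos, Egr1 and Btg2), all lower in MA, against 25.3% of all genes tested in either direction and 18.4% in that direction. Both MA samples were below both AO samples for 34.4% of all genes tested (15.4% with the RPKM as deposited) and above them for 21.9%. The 4 genes of the set below and 1 above are read against these shares. For genes above, the share with the RPKM as deposited is not given. The median log2 difference of all genes was 0.37 there, so the 21.9% does not serve for Jun as deposited.

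Fos, Jun and Junb encode subunits of AP-1, a dimer in which a Fos protein can pair with a Jun protein. Fos had 1.61 and 2.55 RPKM in AO1 and AO2, and 1.25 and 1.53 in MA1 and MA2, from 299 to 638 reads. The MA samples were lower than the AO samples without overlap, although AO1 and MA2 were close. On scaled RPKM, AO1 and AO2 had 2.04 and 2.84, and MA1 and MA2 had 1.03 and 1.32. The log2 difference of MA from AO on the log2(scaled RPKM + 0.5) scale was -0.81 (standard error 0.21, adjusted p = 0.0965 from limma), with a 95% interval from -1.36 to -0.25. This scale understates the change of low mRNAs such as Fos, and on the recovered reads the log2 difference was -1.06 (adjusted p = 0.105 from limma-voom).

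Jun went the other way. It had 28.0 and 37.8 RPKM in AO1 and AO2, and 57.9 and 64.5 in MA1 and MA2, so each MA sample was above each AO sample. After scaling the values were 35.4, 42.2, 47.5 and 55.7 in the same order, and the gap between AO2 and MA1 was small. The log2 difference was 0.41 (standard error 0.21, adjusted p = 0.317 from limma), with a 95% interval from -0.15 to 0.96. As deposited, it was 0.90 (adjusted p = 0.0837), a difference that the scaling reduced by more than 1.5 times. Jun was the 1 gene of the set higher in MA in the fit on scaled RPKM.

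Junb, a close relative of Jun that often acts against it, did not separate the tissues. It had 27.4 and 22.0 RPKM in AO1 and AO2, and 41.4 and 23.4 in MA1 and MA2, so MA1 was highest as deposited. After scaling the values were 34.8, 24.5, 33.9 and 20.2 in the same order, with AO1 slightly above MA1 and the tissues still overlapping. The log2 difference on scaled RPKM was -0.15 (standard error 0.34, adjusted p = 0.839 from limma), with a 95% interval from -1.08 to 0.77. Its sign turned to 0.34 with the RPKM as deposited.

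Egr1 encodes a zinc finger factor that responds to growth factors and mechanical strain in the vessel wall. It had 6.79 and 9.17 RPKM in AO1 and AO2, and 6.40 and 3.64 in MA1 and MA2. MA2 was far below the others, and AO1 and MA1, from the same rat, were close before scaling. After scaling, AO1 and AO2 had 8.61 and 10.2 and MA1 and MA2 had 5.24 and 3.14. The log2 difference was -1.11 (standard error 0.28, adjusted p = 0.0955 from limma), with a 95% interval from -1.87 to -0.35, or 2.16-fold higher in AO on this scale.

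Nr4a1 encodes the orphan nuclear receptor Nur77. It had 6.23 and 2.79 RPKM in AO1 and AO2, and 2.49 and 2.12 in MA1 and MA2, so AO1 stood apart while the other samples were close together. The log2 difference of -1.18 (standard error 0.44, adjusted p = 0.200 from limma) was the lowest of the 8, with a 95% interval from -2.37 to 0.01. It rested on AO1 in part: without AO1 it was -0.58, and without AO2 it was -1.80.

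Myc, a growth-promoting factor of the basic helix-loop-helix class, had 1.99 and 1.21 RPKM in AO1 and AO2, and 1.62 and 2.00 in MA1 and MA2. AO1 and MA2 were nearly equal as deposited. After scaling the values were 2.52, 1.35, 1.33 and 1.73 in the same order, so AO1 was highest and the tissues overlapped on both scales. The log2 difference on scaled RPKM was -0.23 (standard error 0.29, adjusted p = 0.702 from limma), and it turned to 0.16 with the RPKM as deposited. Atf3, a stress-induced factor that represses many of its targets, had 0.289 and 0.103 RPKM in AO1 and AO2, and 0.197 and 0.512 in MA1 and MA2. Each tissue had a high and a low sample. With a lower filter (0.1 RPKM in at least 2 samples) it could be tested, and its log2 difference was 0.11 (standard error 0.26, adjusted p = 0.851 from limma). Its reads numbered between 287 and 1446, so its low RPKM came with a counting error of at most 5.9%.

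Dusp1 and Btg2 encode brakes on the response. Dusp1 is the phosphatase that inactivates MAP kinases, and Btg2 restrains the cell cycle and promotes mRNA decay. Dusp1 had 20.6 and 50.01 RPKM in AO1 and AO2, and 38.2 and 45.4 in MA1 and MA2. Both MA samples fell between the 2 AO samples, and the log2 difference on scaled RPKM was -0.12 (standard error 0.42, adjusted p = 0.9004 from limma). Its 95% interval, from -1.25 to 1.00, leaves room for a 2-fold difference either way, and its sign turned to 0.37 with the RPKM as deposited. Btg2 had 18.8 and 15.6 RPKM in AO1 and AO2, and 12.1 and 9.73 in MA1 and MA2, with no overlap between tissues. After scaling it had 23.8 and 17.4 in AO and 9.94 and 8.40 in MA. The log2 difference of -1.11 (standard error 0.23, adjusted p = 0.0652 from limma) had a 95% interval from -1.74 to -0.49. This was the lowest adjusted p of the set. The adjusted p from limma-voom was 0.0539, on recovered reads that for Btg2 can be too few by a factor of 2.

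**Figure D2:**
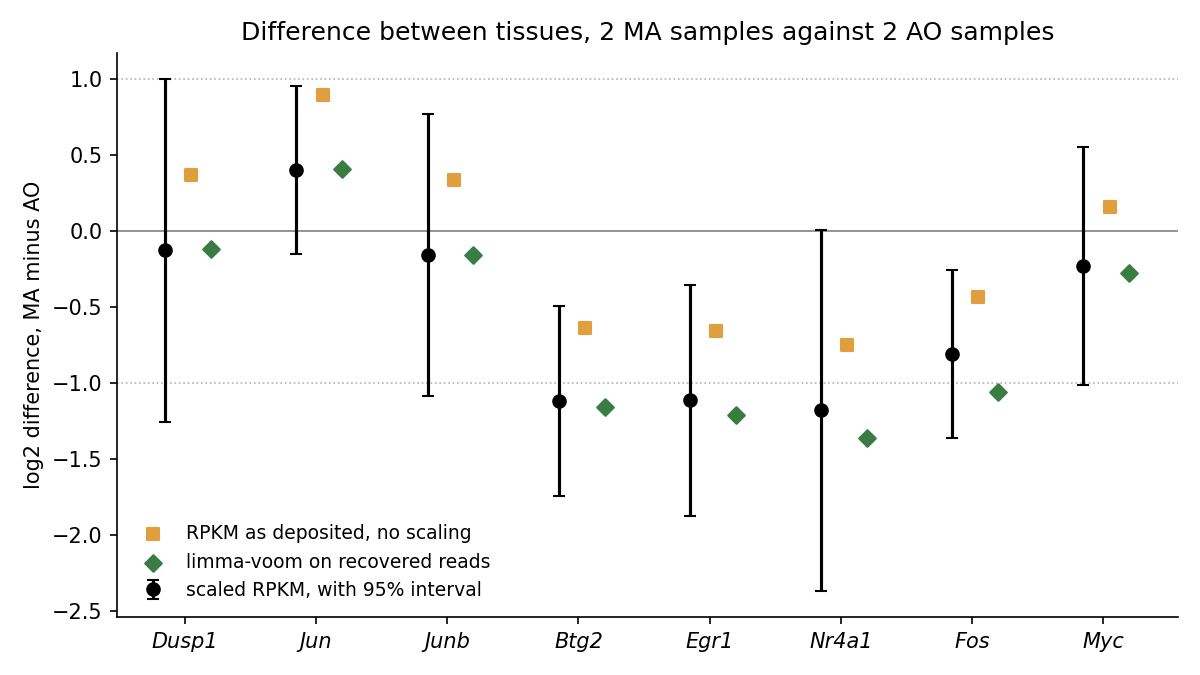
Log2 difference of MA from AO for the 8 immediate early mRNAs tested, with 95% intervals from limma on scaled RPKM (black), without scaling (squares) and with limma-voom on recovered reads (diamonds). Dotted lines mark 2-fold. Btg2, Egr1, Nr4a1 and Fos lie below 0 under all 3 treatments, Jun lies above 0, and Dusp1, Junb and Myc change sign without scaling.

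Across the 8 genes tested, the median log2 difference was -0.52, beside -0.05 over all 7203 genes. The values were -0.13 and 0.37 with the RPKM as deposited, so the scaling shifted the 8 genes and all genes alike. Relative to the median of all genes in the unscaled fit, Fos was at -0.80, Egr1 at -1.03, Nr4a1 at -1.12 and Btg2 at -1.01, while Jun was at 0.53, Myc at -0.21, Junb at -0.04 and Dusp1 at -0.01. An FDR of 0.1 in place of 0.05 called 2 of the 8, Egr1 and Btg2, both higher in AO, where 8.77% of all genes tested were called. Fos also passed that FDR (adjusted p = 0.0965 from limma) but not the 2-fold limit, with a log2 difference of -0.81. With 2 samples per tissue the smallest two-sided p of an exact permutation test is 0.33, so none was run on single genes.

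The ratio of 2 mRNAs within a sample does not depend on the scaling. The ratio of Fos to Jun RPKM was 0.0576 in AO1 and 0.0673 in AO2, and 0.0216 in MA1 and 0.0237 in MA2. The lowest AO ratio was thus 2.43 times the highest MA ratio. The ratio of Egr1 to Jun was 0.243 and 0.242 in AO and 0.110 and 0.0564 in MA. That of Btg2 to Jun was 0.673 and 0.412 in AO and 0.209 and 0.151 in MA. Jun was chosen as the denominator after its values were seen, and 60.3% of all genes tested had a ratio to Jun that was lower in both MA samples. The shift of these 3 genes against Jun is therefore a description and not particular to the set. Between genes that were both lower in MA, the ratio of Btg2 to Egr1 did not separate the tissues, with 2.77 and 1.70 in AO and 1.90 and 2.67 in MA.

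**Figure D3:**
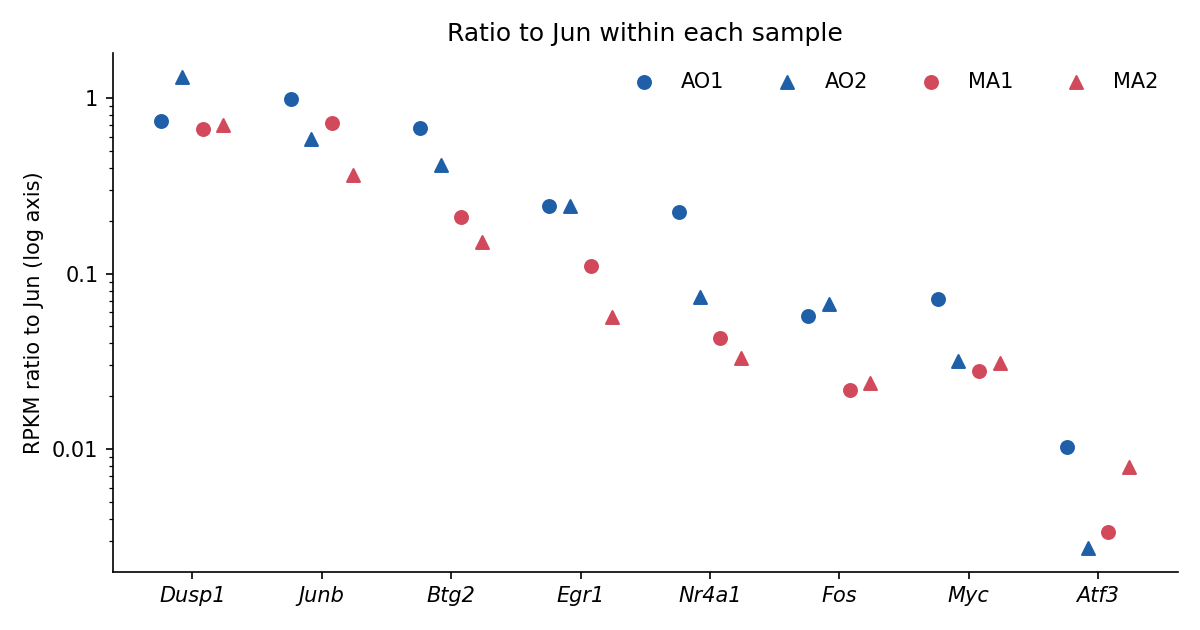
Ratio of each mRNA's RPKM to that of Jun within each sample (log axis), aorta in blue and mesenteric artery in red. By the lowest AO ratio over the highest MA ratio the tissues are farthest apart for Fos (2.43 times), and by the ratio of the tissue means for Nr4a1 (3.91 times, against 2.76 for Fos). They overlap for Junb and Atf3.

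The second question was how far the 2 samples of each tissue differed. With 1 sample against 1 there is no test. In AO, 2 of the 8 genes were more than 2-fold apart on the log2(scaled RPKM + 0.5) scale, beside 4.65% of all genes tested. Dusp1 was 2.11-fold higher in AO2 and Nr4a1 was 2.33-fold higher in AO1. They lay farther apart than 96.2% and 97.3% of all genes tested, and they went in opposite directions. Myc was 1.64-fold and Junb 1.41-fold higher in AO1. In MA, 0 of the 8 were more than 2-fold apart, beside 6.76% of all genes. The largest differences there were Junb, 1.66-fold higher in MA1, and Egr1, 1.58-fold higher in MA1. The median absolute log2 difference of the 8 genes was 0.47 in AO and 0.27 in MA, beside 0.20 and 0.24 over all genes tested.

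Atf3 was the most uneven gene of the set once the pseudocount was left out. Its scaled RPKM were 0.367 in AO1 and 0.115 in AO2, a 3.18-fold difference, and 0.161 in MA1 and 0.442 in MA2, a 2.74-fold difference. Among the 13811 genes with at least 0.1 RPKM in at least 2 samples, 10.9% were more than 2-fold apart in this measure between the AO samples and 13.2% between the MA samples.

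The 9 genes did not move as a block from sample to sample. Of the 9, 5 were higher in AO1 and 4 in AO2, and 4 were higher in MA1 and 5 in MA2. In AO, Nr4a1, Myc, Atf3, Junb and Btg2 were higher in the sample in which Dusp1, Fos, Jun and Egr1 were lower. In MA, Fos, Jun, Dusp1, Myc and Atf3 were higher in the sample in which Junb, Egr1, Nr4a1 and Btg2 were lower.

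**Figure D4:**
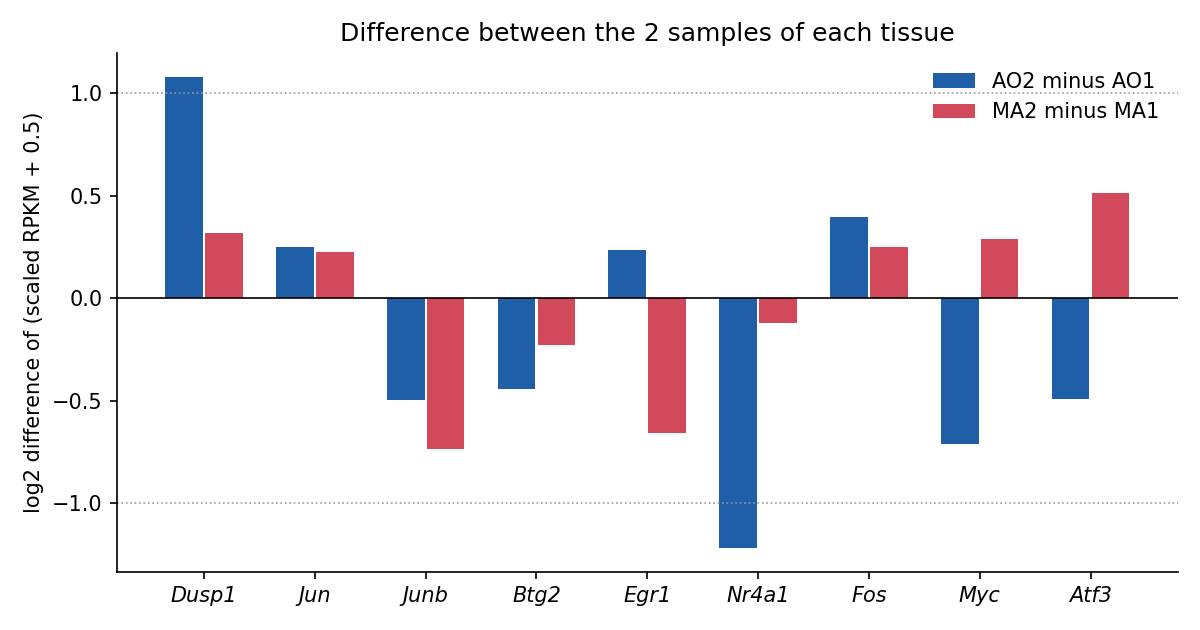
Log2 difference of (scaled RPKM + 0.5) between the 2 samples of each tissue, AO2 minus AO1 in blue and MA2 minus MA1 in red, with dotted lines at 2-fold. Only the AO bars of Dusp1, at 1.08, and Nr4a1, at -1.22, pass 2-fold, and they point in opposite directions.

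AO1 and MA1 share a rat, so their difference was set beside that of AO2 and MA2, which came from different rats. Btg2 differed by a log2 of -1.22 within the rat and by -1.01 between rats, and Fos by -0.74 and -0.88. Jun differed by 0.42 and 0.40, and Junb by -0.04 and -0.27. For these 4 genes the pairs lay closer together than for the other 5. Egr1 differed by -0.67 within the rat and -1.56 between rats, and Nr4a1 by -1.73 and -0.63. Myc, Dusp1 and Atf3 took opposite signs in the 2 pairs, with Myc at -0.73 and 0.27.

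The profile over the 4 samples, averaged over the 9 genes after each was centered on its own mean, was 0.31 and 0.16 (log2) in AO1 and AO2, and -0.23 and -0.24 in MA1 and MA2. The 2 other genes tested whose centered profile lay closest to it, by Euclidean distance over the 4 samples, were ENSRNOG00000001215 at 0.0417 and ENSRNOG00000031171 at 0.0448. These are the smallest distances among all genes tested that are not members. The distances of the 8 members tested ran from 0.507 for Myc to 1.04 for Nr4a1, and are not comparable with those minima.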

How the data were processed

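The authors prepared TruSeq mRNA libraries, sequenced all 4 on a single lane, aligned the paired-end reads to the Ensembl rat genome with TopHat, left out reads that aligned to more than 2 places and counted reads per annotated gene. The deposited values are RPKM, given to 7 decimals. The TopHat version is not given in the sources used here.

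The steps of the RPKM were used to solve for whole reads, gene lengths and library sizes with Python 3.11.15, numpy 2.4.6 and numba 0.67.0, taking the smallest length that gave whole reads. All 20747 genes above 0 were solved, at most 0.0046 from a whole read. The tolerance was 0.0005 reads plus the rounding error of the deposited RPKM, which grows with the length, and a small allowance for the library size. A small distance is built into the method. Its test on simulated data took the recovered lengths as true, so it cannot show that one of them, as for Btg2, is too short. The fit was also run on simulated data.

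Median-of-ratios factors (computed over genes above 0 in every sample) scaled the RPKM, and 0.5 was added before taking log2. The 7203 genes that reached 1 RPKM in 2 or more samples were tested with limma 3.58.1 in R 4.3.3 (lmFit, eBayes with a trend), all 4 samples, without a block. DESeq, the authors' test, takes counts, while the deposited values are RPKM. It was not run on the recovered reads. As an alternative, limma-voom was run on them, with the limit that they can be too few for a gene, as for Btg2. Each sample is 1 artery preparation. The p values therefore rest on the spread between 2 preparations per tissue, which eBayes pulls toward a trend over the 7203 genes. Alternatives covered scaling, pseudocount, filter, trend, limma-voom, block, FDR, fold limit and each sample left out. Counting errors cover counting only.

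The 9 genes and the lists were chosen with earlier results of these data known. The genes named are the 9 members and the 2 other genes nearest to their mean profile. Wider lists of the response and of cell type markers were not used, because identifiers are not paired with symbols. RefSeq GRCr8 gave gene lengths and promoter sequences only.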

Additional observations from a re-analysis of the deposited data

How the results depend on the processing

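Fos, Egr1, Nr4a1 and Btg2 stayed lower in MA, and Jun higher, under every alternative run that can move the estimate (scaling, pseudocount, limma-voom and a sample left out), with log2 differences from -1.06 to -0.43 for Fos, -1.44 to -0.65 for Egr1, -1.80 to -0.58 for Nr4a1, -1.34 to -0.63 for Btg2 and 0.27 to 0.90 for Jun. The filter, trend, block, FDR and fold limit leave the estimate as it is and bear on the p or the call alone. Over all 17 alternatives the adjusted p ranged from 0.0763 to 0.252, 0.0715 to 0.306, 0.103 to 0.436, 0.0539 to 0.296 and 0.0837 to 0.793. The sign of the other 3 genes tested was not stable. With the RPKM as deposited the log2 difference was 0.34 for Junb, 0.16 for Myc and 0.37 for Dusp1. With quantile normalization it was 0.15 for Junb and 0.17 for Dusp1. Leaving out a sample gave from -0.53 to 0.21 for Junb, from -0.59 to 0.12 for Myc and from -0.67 to 0.41 for Dusp1.

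Among the alternatives that keep all samples, the number of immediate early genes called was 0 under each but the FDR of 0.1, where it was 2. With no filter no gene of any kind was called, so the 0 there says nothing about the set. The median log2 difference of the 8 genes was -0.13 with the RPKM as deposited, and from -0.63 to -0.58 with a sample left out. The numbers of members more than 2-fold apart within a tissue, 2 in AO and 0 in MA, were the same under each scaling and pseudocount tried.

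Over all genes, 555 were called, 67 higher in MA and 488 in AO. As deposited it was 170 and 260. The number higher in MA was 43 with a pseudocount of 1 and 134 with an FDR of 0.1. With a filter of 0.1 RPKM 368 were called, 39 of them higher in MA. With no filter 0 were called in total, in MA or in AO, although 3434 of 20747 had an unadjusted p under 0.05. Leaving out any 1 sample leaves 1 sample in a tissue, which is assumed to vary like the other tissue. Those fits are therefore read for the log2 differences and not for calls. With the replicate block 563 were called, 107 of them higher in MA, and none of the 8 immediate early genes was called with it or without it. By the study's methods AO2 and MA2 share only a number, while AO1 and MA1 share a rat. Over the genes tested, AO1 minus AO2 had a correlation of 0.018 with MA1 minus MA2. This value holds both pairs at once and cannot tell them apart. For all of these changes, the cause was not tested.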
